A study of Homo sapiens with 20 samples.

Results

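The genes described here were the histone genes named for the clusters of the human genome: protein-coding genes whose symbol begins with H1-, H2AC, H2BC, H3C or H4C. The 68 reported were among the 60232 genes of the table, namely 9 H1, 16 H2A, 17 H2B, 12 H3 and 14 H4 genes. Expression was measured by RNA-seq in 5 gastric cancer cell lines treated for 72 h with decitabine (DCB), a cytidine analog that inhibits DNA methyltransferases, or with the solvent DMSO. YCCEL1 and SNU719 carry Epstein-Barr virus (EBV+). Together with the virus-free (EBV-) line AGS they make up the CpG island methylator phenotype (CIMP+) class, and the other 2 EBV- lines, SNU16 and HGC27, form the CIMP- class. Each line had 2 DMSO and 2 DCB libraries, 20 in all, and no label says whether the 2 were grown separately. The spread behind each p-value is therefore that of these libraries and may be technical. Each line is an established culture, and each class rests on 2 or 3 lines.

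Histones package DNA: H2A, H2B, H3 and H4 form the nucleosome core and H1 binds the linker DNA between nucleosomes. The clustered genes supply the bulk of new histones when DNA is copied, and their mRNAs rise in S phase and fall when replication stops. Unlike other mRNAs, these transcripts normally end in a conserved stem-loop and carry no poly(A) tail. The stem-loop is bound by SLBP, the stem-loop binding protein, and the end is cut with the help of the U7 small nuclear ribonucleoprotein. The libraries were made from poly(A) RNA, so they hold these mRNAs only as far as the transcripts were tailed or otherwise captured. A rise in these libraries therefore cannot be told apart from a change in the tailed share. Likewise, a change in the share of cells in S phase cannot be told apart from a change in RNA per cell.

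The symbol rule was checked against the genome. A stem-loop of 16 bases, with 6 paired bases on each side of a loop of 4, lay within 150 bases after the stop codon in 65 of the 68 genes. The other 3 were H1-10 and H1-8 on chromosome 3 and H1-7 on chromosome 12, which lie outside the clusters, so the name clustered replication-dependent histone gene does not hold for them. Of the rest, 55 lay on chromosome 6 and 10 on chromosome 1. H1-10 is a linker histone made outside S phase as well, and H1-7 and H1-8 are known from testis and oocyte.

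The stem-loops are shown for members that carried the results, on the strand of the gene, with 7 bases on each side. Capitals mark the paired bases of the stem. All lie in the 3′ UTR, and positions are those of the 16 bases in GRCh38.
H1-2 (chr6:26055744-26055759, minus strand): cccaaaaGGCTCTtttcAGAGCCaccactg
H2AC6 (chr6:26124669-26124684, plus strand): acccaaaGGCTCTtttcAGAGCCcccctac
H2AC19 (chr1:149851574-149851589, plus strand): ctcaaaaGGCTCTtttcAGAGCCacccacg
H2AC11 (chr6:27133515-27133530, plus strand): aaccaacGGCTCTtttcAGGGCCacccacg
H2BC4 (chr6:26123472-26123487, minus strand): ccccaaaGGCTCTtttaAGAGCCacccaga
H2BC5 (chr6:26158587-26158602, plus strand): tcccaaaGGCTCTtttaAGAGCCacgcatg
H3C6 (chr6:26225596-26225611, plus strand): atccaaaGGCTCTtctcAGAGCCaaccact
H4C8 (chr6:26285131-26285146, minus strand): aaccaaaGGCCCTtttcAGGGCCgcccact

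The stem was the same in every H1, H2B and H3 gene that had one, and in 14 of 16 H2A genes. The 14 H4 genes had another stem, in which 1 base pair differs. H2AC11 and H2AC15 pair a G with a T at 1 position. The loop read TTTC in 48 genes, TTTA in 9, TTTT in 5, TCTC in 2 and TCTA in 1.

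Promoters were read as the RefSeq sequence (GRCh38.p14) from 250 bases before to 50 bases after the start, which was at hand for 63 of the 68 symbols. The octamer ATTTGCAT, searched on both strands, is the site through which the factor OCT1 drives S-phase transcription of H2B. It was present in 14 of 17 H2B promoters and 11 of 15 H2A promoters, in 1 of 10 H3 promoters and in none of 9 H1 and 12 H4 promoters. Of all 27305 promoters, 1.8% held it. TATAAA was present in 41 of the 63 promoters (65.1%), against 11.95% of all promoters, and CCAAT in 53 (84.1%) against 35.7%. Windows of 30 bases around the octamer (capitals) are shown for the H2B genes that rose over the 5 lines and held it. These are matches of letters, and no binding was measured.
H2BC4 (chr6:26124042-26124049): tttcatacctcATTTGCATagctctgccca
H2BC8 (chr6:26216729-26216736): ttgaattctttATTTGCATgaaaggcctat
H2BC11 (chr6:27132835-27132842): ctcttcaccttATTTGCATaagcgattcta
H2BC12 (chr6:27146897-27146904): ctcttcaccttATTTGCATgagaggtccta
H2BC21 (chr1:149886721-149886728): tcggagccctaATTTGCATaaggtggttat
H2BC17 (chr6:27893276-27893283, octamer on the other strand): gcttcctcttaATGCAAATgagctttctga

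Summed normalised counts ranged from 7764408 to 9321014 per library, and duplicates correlated at 0.969 to 0.980 across genes. In HGC27 the epithelial markers were low: EPCAM had 24 and 32 normalised counts in DMSO against 4724 or more in the other lines, and CDH1 had 13.5 and 7.72, while the collagen gene COL1A1 had 8382 and 8748. AGS had 67.8 and 104 for CDH1. The 5 epithelial markers summed to 115 to 173 in DMSO and 485 to 609 in DCB in HGC27, where CDH1, KRT8, KRT18 and KRT19 rose, and to 31499 or more in every library of the other lines, where KRT8 and KRT18 rose in AGS. Of 6 stromal and leukocyte markers, 5 rose over the 5 lines with DCB, against 17.9% of all genes. Their sum went from 260 to 288 in DMSO to 1913 to 1997 in DCB in AGS, and in the same order from 9105 to 9609 to 11216 to 12364 in HGC27, from 6.67 to 28.3 to 46.7 to 72.5 in YCCEL1, from 24.9 to 36.1 to 109 to 111 in SNU719 and from 14.4 to 23.4 to 81.4 to 83.2 in SNU16. The part of these markers in the results was not tested.

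Of the 68 members, 3 (H2AC1, H2AC18 and H4C7) were listed at 0 in every library and 12 more stayed at a sum of 10 or less over the 20 libraries, so 53 were tested. The 3 testis-type members of the cluster, H1-6, H2AC1 and H2BC1, were among the 15 that were not tested and did not exceed 1.51 normalised counts in any library. Levels were low in general: 37 of the 53 had a mean of 4 or less on the log2(value + 1) scale, where few changes can be called with 2 libraries per group. A missed call there does not show that a gene did not change.

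The summed normalised count of the 65 stem-loop genes was higher in DCB in 4 lines and lower in HGC27. In YCCEL1 it was 709 and 706 in DMSO and 1099 and 1077 in DCB. In SNU719 it went from 873 and 791 to 1556 and 1567. In AGS it went from 670 and 658 to 1466 and 1454. The ratio of the means was 1.54 in YCCEL1, 1.88 in SNU719 and 2.20 in AGS, and no DCB library fell among the DMSO libraries. In SNU16 the sum went from 1719 and 1736 to 2491 and 2281, a ratio of 1.38. In HGC27 it went from 2128 and 2047 to 1891 and 1886, a ratio of 0.905. The HGC27 fall was not kept when each sum was scaled by its library total. The scaled values were 251.2 and 238.6 in DMSO and 243.6 and 242.6 in DCB, so the DCB libraries lay between the DMSO libraries. In YCCEL1, SNU719, AGS and SNU16 the scaled DCB values stayed above the DMSO values. Both CIMP- lines had higher sums in DMSO than the 3 CIMP+ lines. These sums are a description with no test.

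**Figure D1:**
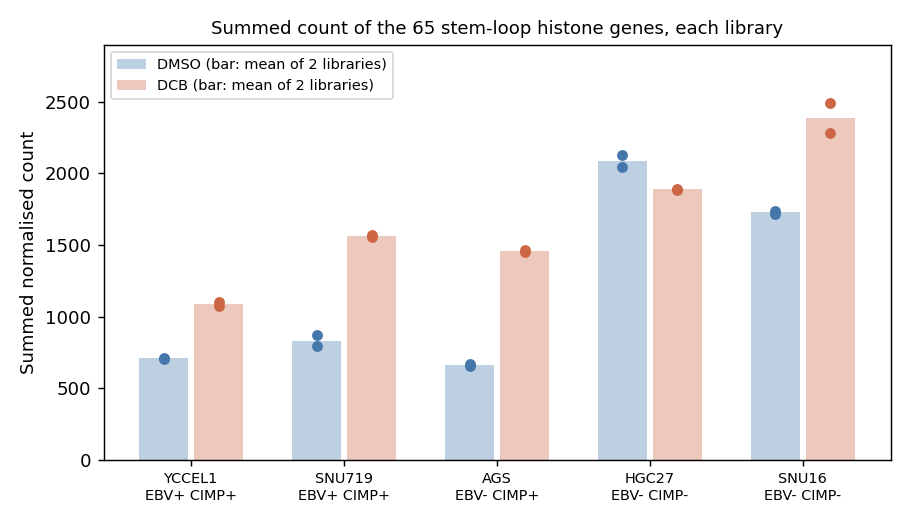
Summed normalised count of the 65 stem-loop histone genes in each library (points), with bars at the mean of the 2 libraries, by line and treatment. The DCB libraries lie above the DMSO libraries in YCCEL1, SNU719, AGS and SNU16, and below them in HGC27, where the sum went from 2128 and 2047 to 1891 and 1886. When each sum was scaled by its library total, the HGC27 DCB libraries lay between the DMSO libraries.

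Single genes were then compared between DCB and DMSO within each line. In YCCEL1, 5 of 53 members rose (9.43%) and 0 fell, against 14.6% and 6.93% of the 27350 genes tested. In SNU719, 11 rose (20.8%) and 1 fell (1.89%), against 13.5% and 7.64%. In AGS, 13 rose (24.5%) and 2 fell (3.77%), against 18.5% and 9.13%. In HGC27, 6 rose (11.3%) and 4 fell (7.55%), against 14.7% and 9.03%. In SNU16, 6 rose (11.3%) and 1 fell (1.89%), against 4.5% and 2.34%. These shares were not tested against the background. The member counts moved with the processing: 8 rose in YCCEL1 and 8 in HGC27 with the same total per library. With each line fitted alone, 5 rose in SNU719 and 4 in AGS. The background moved as well: each line alone left 3843 calls among all genes for SNU719 (main fit 5795) and 4773 for AGS (main fit 7543). Background shares of higher genes under these settings are not given here, so the members' place beside them is not known. In all, 22 members were called in at least 1 line and 31 in none. The share of all genes called in at least 1 line is not given here, so this count is a description only.

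Calls in SNU16 were fragile: leaving out any of its 4 libraries left 0 or 1 calls in place of 7, with 0 without DMSO replicate 1. In YCCEL1, 3 calls in place of 5 were left without DCB replicate 2. In HGC27, 3 members in place of 6 rose without DMSO replicate 1, DMSO replicate 2 or DCB replicate 1, and 4 without DCB replicate 2, while 4 fell each time. In AGS the calls of H2BC15, H2BC13 and H3C8 were lost when any of 16, 14 and 14 libraries was left out, and that of H3C14 with any of 4. The SNU16 call of H2BC12 was lost with any of 14. H2BC8 in SNU719 was lost without DMSO replicate 2 or DCB replicate 1, and H3C12 in HGC27 without DMSO replicate 2 or DCB replicate 2.

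The study used a log2 fold limit of 2 beside the adjusted p, on DESeq2 fold changes adjusted with apeglm. Here the limit was set on limma differences of log2(value + 1) without that adjustment, so the measures differ. Of 53 members it left 1 higher in YCCEL1, against 7.99% of all genes (0.197% lower). It left 3 higher in SNU719, against 6.38% (0.249% lower), and 6 in AGS, against 9.02% (0.636% lower). In SNU16 it left 1 higher, against 2.31% (0.135% lower). In HGC27 it left 2 higher and 0 lower, against 4.95% and 0.618%. Over the 5 lines it left 0, against 3.4% and 0.00731%, where 15 and 1 had passed limma's adjusted p alone, and 0 higher and 1 lower for the CIMP difference (3.68% and 0.534%) and 0 higher and 2 lower for the EBV difference (2.78% and 0.658%).

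**Figure D2:**
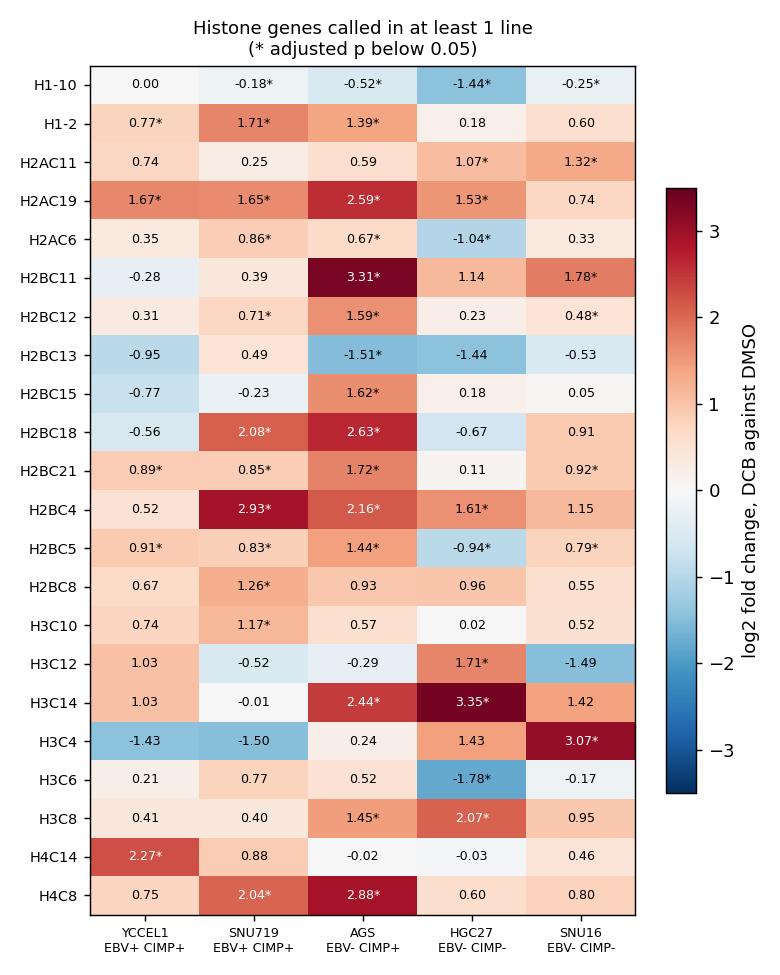
log2 fold change of DCB against DMSO for the 22 members called in at least 1 line (rows) in the 5 lines (columns), with red for higher and blue for lower in DCB and an asterisk at an adjusted p below 0.05. H2AC19 was called higher in 4 lines, H1-10 lower in 4, and H2AC6 and H2BC5 in opposite directions in HGC27 and in SNU719 and AGS; H3C4 was listed at 0 in both DMSO libraries of SNU16, so its value there depends on the pseudocount.

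Of the 5 tested H1 genes, H1-10 and H1-2 were called, in opposite directions in SNU719 and AGS. H1-10, which has no stem-loop, fell in 4 lines. In HGC27 it went from 1298 and 1323 to 498 and 466 (log2 fold change -1.44 ± 0.06, limma adjusted p = 2.9e-10) and in AGS from 1254 and 1285 to 875 and 895 (-0.52 ± 0.06, limma adjusted p = 9.4e-06). The changes in SNU719 (-0.18) and SNU16 (-0.25) were smaller, and their calls were lost when any 1 of the 4 SNU719 libraries was left out, and without SNU16 DMSO replicate 1 or either SNU16 DCB library. In YCCEL1 the change was 0.00. H1-7 and H1-8 did not exceed 1.69 normalised counts in any library.

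H1-2, the one stem-loop H1 gene with more than 10 normalised counts in every library, rose in the 3 CIMP+ lines. It went from 64.4 and 66.5 to 108 and 117 in YCCEL1, from 58.3 and 40.4 to 154 and 169 in SNU719 and from 78.5 and 56.0 to 167 and 183 in AGS. The DCB libraries lay above the DMSO libraries in each. The log2 fold changes were 0.77 ± 0.19, 1.71 ± 0.19 and 1.39 ± 0.19 (limma adjusted p = 0.0094, 1.9e-05 and 8.6e-05). The YCCEL1 call was lost without DMSO replicate 1 or DCB replicate 2. In HGC27 it went from 127 and 143 to 146 and 159 (0.18, limma adjusted p = 0.57) and in SNU16 from 188 and 191 to 307 and 269 (0.60, limma adjusted p = 0.082). H1-1, H1-3, H1-4 and H1-5 were near 0, at most 7.59 normalised counts.

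Among H2A genes, H2AC19 rose in 4 lines. It went from 54.7 and 46.7 to 152 and 174 in YCCEL1, from 45.6 and 51.9 to 158 and 151 in SNU719, from 23.2 and 59.3 to 232 and 227 in AGS and from 40.3 and 33.8 to 105 and 113 in HGC27. The groups did not overlap. The log2 fold changes were 1.67, 1.65, 2.59 and 1.53, each ± 0.30 (limma adjusted p = 0.001, 0.0012, 1.8e-05 and 0.0017). In SNU16 it went from 134 and 130 to 208 and 232 (0.74 ± 0.30, limma adjusted p = 0.19). H2AC18 has a coding sequence 100% identical to that of H2AC19 and was listed at 0 throughout, so reads of the 2 genes cannot be told apart.

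H2AC6 went in opposite directions. In SNU719 it went from 139 and 145 to 261 and 256 (log2 fold change 0.86 ± 0.14, limma adjusted p = 0.0004) and in AGS from 91.2 and 86.6 to 143 and 140 (0.67 ± 0.14, limma adjusted p = 0.002). In HGC27 it went from 546 and 392 to 220 and 230 (-1.04 ± 0.14, limma adjusted p = 6.4e-05). H2AC11 rose in HGC27 (1.07) and SNU16 (1.32), with calls that were each lost when any 1 of the 4 libraries of the line was left out. The rest of the tested H2A genes were not called in any line.

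Of the 15 tested H2B genes, 7 rose in AGS (46.7%, against 18.5% of all genes), 6 in SNU719 (40%, against 13.5%), 4 in SNU16 (26.7%, against 4.5%), 2 in YCCEL1 (13.3%, against 14.6%) and 1 in HGC27 (6.67%, against 14.7%). H2BC13 fell in AGS and H2BC5 in HGC27. H2BC12 went from 65.1 and 60.4 to 187 and 196 in AGS (log2 fold change 1.59 ± 0.14, limma adjusted p = 1.1e-06) and from 178 and 150 to 264 and 272 in SNU719 (0.71 ± 0.14, limma adjusted p = 0.0018). H2BC21 was called in 4 lines, at 0.89 in YCCEL1, 0.85 in SNU719, 1.72 in AGS and 0.92 in SNU16. Its calls were lost in YCCEL1 without DMSO replicate 1 or DCB replicate 2, in SNU719 without DMSO replicate 1 or either DCB library, and in SNU16 with any 1 of its 4 libraries left out. H2BC4 went from 2.49 and 6.21 to 35.4 and 38.8 in SNU719 (2.93 ± 0.40, limma adjusted p = 0.00013), from 3.29 and 6.12 to 28.1 and 19.9 in AGS (2.16 ± 0.40, limma adjusted p = 0.0011) and from 19.9 and 15.6 to 63.6 and 49.0 in HGC27 (1.61 ± 0.40, limma adjusted p = 0.0096). The HGC27 call was lost without DMSO replicate 2 or DCB replicate 1.

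H2BC5 was called in every line and, like H2AC6, fell in HGC27. It went from 48.0 and 66.5 to 105 and 110 in YCCEL1 (log2 fold change 0.91), from 56.7 and 60.5 to 98.5 and 112 in SNU719 (0.83), from 39.2 and 32.5 to 104 and 93.8 in AGS (1.44) and from 99.9 and 109 to 199 and 164 in SNU16 (0.79). In HGC27 it went from 217 and 224 to 112 and 116 (-0.94 ± 0.18, limma adjusted p = 0.0014). The SNU16 call was lost without either DMSO library or DCB replicate 1. H2BC11 rose in AGS from 2.91 and 1.04 to 31.0 and 23.5 (3.31 ± 0.45, limma adjusted p = 8.7e-05). H2BC18 rose in SNU719 (2.08) and AGS (2.63), with calls lost when any 1 of the 4 SNU719 libraries was left out and without AGS DMSO replicate 2 or DCB replicate 2.

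**Figure D3:**
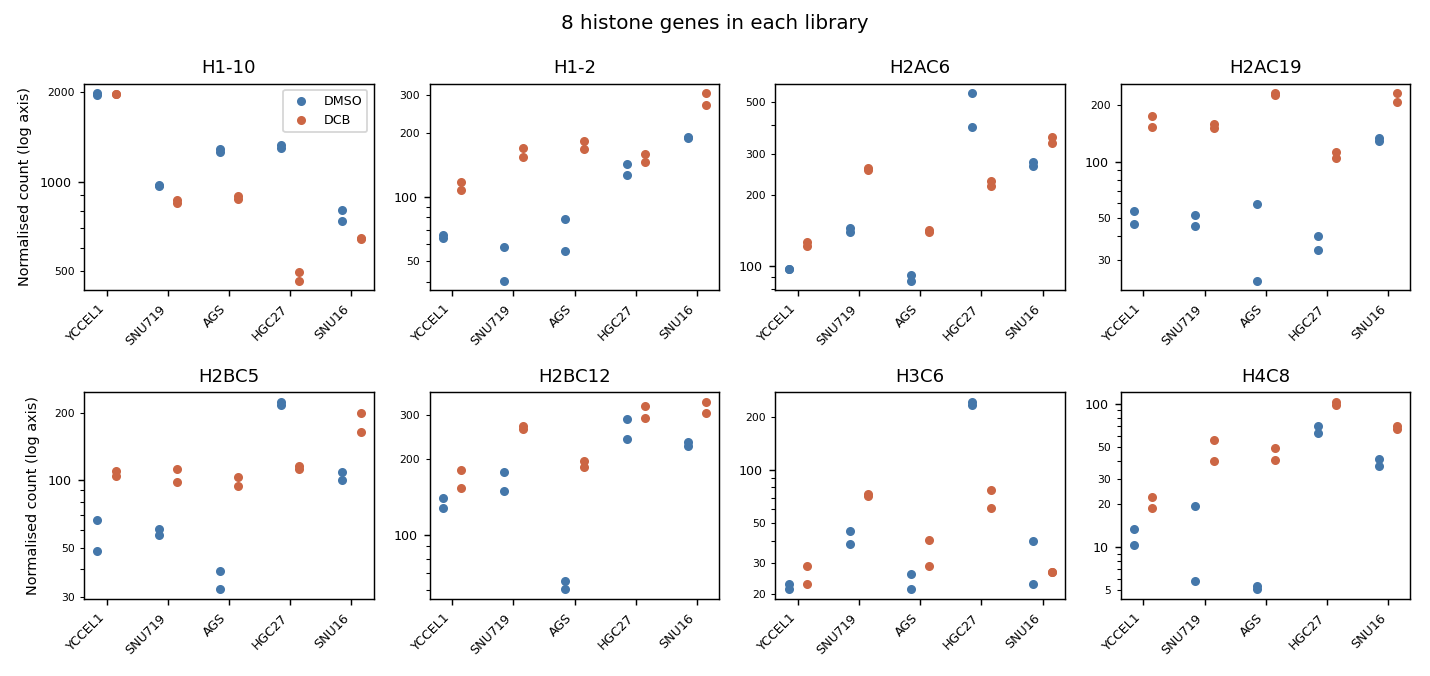
Normalised counts (log axes) of 8 histone genes in each of the 20 libraries, by line, with DMSO in blue and DCB in orange. H2AC6, H2BC5 and H3C6 were lower in DCB in HGC27, while H1-2, H2AC19, H2BC12 and H4C8 had DCB libraries above the DMSO libraries in all 5 lines.

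H3 and H4 genes were at lower values. H3C6 stood apart in HGC27, where it went from 235 and 244 to 77.7 and 61.4 (log2 fold change -1.78 ± 0.27, limma adjusted p = 0.00027), and was called in no other line. H3C14 rose in HGC27 from 0 and 2.42 to 22.6 and 14.0 (3.35 ± 0.80, limma adjusted p = 0.0074) and H3C8 from 1.15 and 3.62 to 12.8 and 11.7 (2.07 ± 0.51, limma adjusted p = 0.0091), calls that were both lost without DMSO replicate 1 or DCB replicate 1. The H3C14 fold in HGC27 depends on the pseudocount, because a DMSO library was at 0. H3C14 overlaps H4C14 and shares 97.1% of its coding sequence with H3C13. H3C10 rose in SNU719 (1.17, lost without DMSO replicate 2 or DCB replicate 2). H3C4 was listed at 0 in both DMSO libraries of SNU16 and at 7.90 and 6.89 in DCB, so no fold is given.

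H4C8 went from 19.5 and 5.81 to 40.2 and 56.4 in SNU719 (log2 fold change 2.04 ± 0.39, limma adjusted p = 0.0019) and from 5.39 and 5.08 to 40.9 and 49.5 in AGS (2.88 ± 0.39, limma adjusted p = 8.3e-05). H4C14 rose in YCCEL1 (2.27, limma adjusted p = 0.03), a call lost without DMSO replicate 2 or either DCB library. H4C11 and H4C12 have 100% identical coding sequences, and in 5 of the 10 groups at least 1 of the 2 had a library at 0 beside a duplicate above 10, both of them in 4. Their values, like those of H4C14 and H4C15, are uncertain.

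Over the 5 lines, with line as a term, 15 members rose (28.3%) and 1 fell, H1-10, against 17.9% and 6.94% of all genes. The 8 with the smallest adjusted p were H2AC19 (log2 fold change 1.64 ± 0.19), H2BC4 (1.67 ± 0.27), H1-2 (0.93 ± 0.16), H2BC21 (0.90 ± 0.16), H4C8 (1.42 ± 0.27), H2BC12 (0.67 ± 0.14), H2BC8 (0.88 ± 0.18) and H2AC11 (0.79 ± 0.18). The others that rose were H4C5, H3C14, H3C8, H3C10, H2BC11, H2BC17 and H2BC5. The H2BC5 call was lost when any of 16 libraries was left out, and the H2BC17 call with any of 4. Of the 7 H2B genes that rose, 6 hold the octamer, beside 14 of all 17 H2B promoters (82.4%). A link between octamer and rise was not tested.

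The table's gene span runs more than 100 bases past the stem-loop in 21 of the 65 genes. All 21 were tested, and 11 rose over the 5 lines (52.4%, against 17.9% of all genes). Of the 44 other stem-loop genes 31 were tested, and 4 rose (12.9%). The 3 stem-loop genes that fell in HGC27 were all among the 21. In that line the sum of the 21 went from 1609 and 1483 to 1244 and 1192, and that of the 44 from 519 and 564 to 648 and 693. A longer span also collects more reads, so this split is a description with no test, made after the values were seen.

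The direction of replication genes was then set beside the histone genes. The list held 60 genes of the G1/S transition and DNA replication, all tested. In YCCEL1, 2 rose and 13 fell (21.7%), with a median log2 fold change of -0.21. In SNU719, 1 rose and 48 fell (80.0%), with a median of -0.84. In AGS 9 rose and 9 fell (15% each), with a median of -0.02. In HGC27, 54 rose (90%) and 0 fell, with a median of 1.67. In SNU16, 2 rose and 1 fell, with a median of 0.09. Of all genes, 14.6% rose and 6.93% fell in YCCEL1, 13.5% and 7.64% in SNU719 and 18.5% and 9.13% in AGS. In HGC27 14.7% rose and 9.03% fell, and in SNU16 4.5% and 2.34%. Without AGS DMSO replicate 1, 11 genes in place of 18 were called in AGS, and without 1 of its libraries 0 or 1 in place of 3 in SNU16. Median changes of the 52 tested stem-loop genes were 0.33 in YCCEL1, 0.22 in SNU719, 0.54 in AGS, 0.20 in HGC27 and 0.35 in SNU16. Over all genes tested they were 0.09, 0.11, 0.12, 0.04 and 0.01. Of the 53 tested members, 37 had a mean of 4 or less on the log2(value + 1) scale. The histone medians therefore rest mostly on genes with low values.

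In SNU719, where 48 replication genes fell, 11 of 52 tested stem-loop genes rose (21.2%, against 13.5% of all genes) and 0 fell. In HGC27, where 54 replication genes rose, 6 stem-loop genes rose (11.5%, against 14.7%) and 3 fell (5.77%, against 9.03%), namely H2AC6, H2BC5 and H3C6. Without these 3, chosen because they fell, the sum of the other 62 went from 1130 and 1187 to 1482 and 1479. The difference between both lists was not tested.

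**Figure D4:**
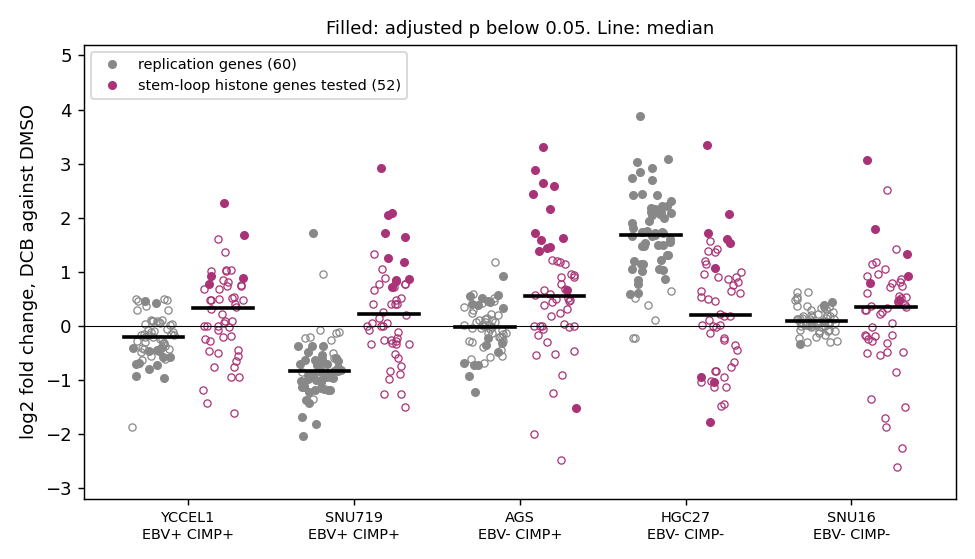
log2 fold change of DCB against DMSO in each line for the 60 replication genes (grey) and the 52 tested stem-loop histone genes (purple), with filled points at an adjusted p below 0.05 and black lines at the medians. Replication genes had medians of -0.84 in SNU719 and 1.67 in HGC27, and the histone medians lay between 0.20 and 0.54. Of the 53 tested members, 37 had a mean of 4 or less on the log2(value + 1) scale. The histone medians therefore rest mostly on genes with low values, and the difference between both lists was not tested.

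PCNA, the sliding clamp of the replicative polymerase, had 447 and 432 normalised counts in DMSO and 1879 and 1893 in DCB in HGC27 (log2 fold change 2.10, limma adjusted p = 6.5e-12). In SNU719 it went from 3061 and 3174 to 2278 and 2203 (-0.48, limma adjusted p = 3.2e-05) and in AGS from 2333 and 2518 to 3472 and 3649 (0.55, limma adjusted p = 5.4e-06). It was not called in YCCEL1 (0.03) or SNU16 (0.06). MCM2, a subunit of the replicative helicase, fell in YCCEL1 (-0.72) and SNU719 (-1.68), rose in HGC27 (1.60), and was not called in AGS (-0.14) or SNU16 (0.04). CCNE2, a cyclin of S-phase entry, rose in HGC27 from 38.3 and 9.14 to 261 and 326 (3.87, limma adjusted p = 3.1e-05) and was called in no other line. CDC6, which loads the helicase, fell in YCCEL1 (-0.71) and SNU719 (-1.01) and rose in AGS (0.51) and HGC27 (3.09). The proliferation marker MKI67 fell in SNU719 (-1.56, limma adjusted p = 0.0001) and was not called in HGC27 (-0.53, limma adjusted p = 0.086). Its values in YCCEL1, AGS and SNU16 are not given here.

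Of 20 mitosis genes, 12 fell in YCCEL1 (60%, against 6.93% of all genes), 18 in SNU719 (90%, against 7.64%) and 5 in AGS (25%, against 9.13%). In AGS 2 rose (10%, against 18.5%), in HGC27 14 rose (70%, against 14.7%) and in SNU16 none was called. KIF11, a spindle motor, changed by -1.17 in SNU719, -0.63 in AGS and 1.49 in HGC27.

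The 16 genes that transcribe histone genes or form their mRNA 3′ ends had 7 higher and 2 lower in HGC27. These were 43.8% and 12.5%, against 14.7% and 9.03% of all genes. SLBP went from 540 and 430 to 856 and 780 in HGC27 (log2 fold change 0.76, limma adjusted p = 0.00019) and from 660 and 579 to 395 and 413 in SNU719 (-0.61, limma adjusted p = 0.0013). Its values in YCCEL1, AGS and SNU16 are not given here. NPAT, the histone gene coactivator, rose in HGC27 (0.89, limma adjusted p = 0.006) and was called in no other line. In YCCEL1 1 gene rose (6.25%, against 14.6% of all genes) and 3 fell (18.8%, against 6.93%). In SNU719 and in AGS 2 fell (12.5%, against 7.64% and 9.13%), and in SNU16 none was called.

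Among 18 histone chaperones, 2 rose (11.1%) and 5 fell (27.8%) in YCCEL1, against 14.6% and 6.93% of all genes. In SNU719 0 rose and 11 fell (61.1%), against 13.5% and 7.64%. In AGS 3 rose (16.7%) and 7 fell (38.9%), against 18.5% and 9.13%. In HGC27 9 rose (50%) and 2 fell (11.1%), against 14.7% and 9.03%. In SNU16 1 rose (5.56%) and 2 fell (11.1%), against 4.5% and 2.34%. NASP, which carries H3 and H4, changed by -0.91 in SNU719 and 1.20 in HGC27, and ASF1B, a chaperone of H3 and H4, rose by 3.07 in HGC27. NAP1L1, a chaperone of H2A and H2B, fell in all 5 lines, by 0.15 in SNU16 to 0.68 in SNU719 on the log2 scale. Of 15 tested replication-independent histone variant genes, 6 rose and 2 fell in YCCEL1 (40% and 13.3%) and 4 rose and 7 fell in SNU719 (26.7% and 46.7%). In AGS 5 rose and 5 fell (33.3% each). In HGC27 8 rose and 1 fell (53.3% and 6.67%), and in SNU16 4 rose and 1 fell (26.7% and 6.67%). The shares of all genes are those given for the chaperones. H2AJ (2.45) and H2AX (1.41) rose in HGC27 and H2AZ1 (-0.70) fell in SNU719. H3Y1 and H3Y2, primate variants known from testis, rose in YCCEL1 (10.11 and 7.30), SNU719 (6.73 and 3.37) and AGS (7.79 and 5.31). Their counts are not given here, and where DMSO values are near 0 such changes depend on the pseudocount.

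The response differed between the 5 lines for 14 of 53 members (26.4%, F test), against 34.2% of all genes. H1-10, H2AC6, H2BC5 and H2BC12 had the smallest adjusted p.

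Responses of the 3 CIMP+ lines were then compared with those of the 2 CIMP- lines, and of the 2 EBV+ with the 3 EBV- lines. These tests use the spread between duplicates, and a class cannot be told apart from the lines that form it. The response to DCB was higher in CIMP+ lines for 9 members (17%) and lower for 1, against 12.8% and 8.94%. H2AC6 (difference of log2 fold changes 0.98 ± 0.12, limma adjusted p = 6.7e-05), H2BC5 (1.1397 ± 0.16, limma adjusted p = 0.00019), H3C6 (1.47 ± 0.25, limma adjusted p = 0.00075) and H1-2 (0.90 ± 0.17, limma adjusted p = 0.0019) were among the 9. The first 3 had their fall in HGC27. The calls of H2AC19, H2BC21 and H4C8 were lost when any of 18, 16 and 10 libraries was left out. H3C4 was the 1 with the lower response. It had no normalised counts in either DMSO library of SNU16. Its CIMP and EBV differences, also those past the fold limit, therefore depend on the pseudocount. The response was higher in EBV+ lines for 3 members (5.66%) and lower for 2, H2BC11 (-2.02 ± 0.41, limma adjusted p = 0.0032) and H3C4, against 10.5% and 9.17%. The 3 were H1-10, H2AC6 and H3C6. By contrast 53 of 60 replication genes had a lower response in CIMP+ lines (88.3%, against 8.94%) and 52 in EBV+ lines (86.7%, against 9.17%). HGC27 is in both the CIMP- and the EBV- class, and its replication genes had a median log2 fold change of 1.67. The medians were 0.09 in SNU16, -0.02 in AGS, -0.21 in YCCEL1 and -0.84 in SNU719. A comparison of the classes without HGC27 was not made.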

How the data were processed

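RNA-seq libraries of poly(A) RNA from 5 lines, 2 per treatment, were analysed. The submitters' processing notes name STAR 2.5.2b, featureCounts 1.5.1 and DESeq2 1.14.1 with build GRCh37, while the study's methods name an oligo-dT 3′ kit and GRCh38. The table's coordinates matched GRCh38 (92.6% of 60064 genes had the same start and end as GENCODE v44), so GRCh38 was used. The study's methods name MKN74 where the labels name HGC27, and the labels were followed. The authors deposited 1 table of normalised counts, which were not whole numbers and were treated as a signal (37.3% to 42.5% of low values were whole steps within 0.02), so the planned count test was not run.

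Values were taken as log2(value + 1) and genes summing to more than 10 over the 20 libraries were fitted with limma 3.58.1 (R 4.3.3), with trend, on 10 groups, or with line as a term over the 5 lines. P-values were adjusted by Benjamini-Hochberg over 27350 genes, with calls below 0.05. Replicate numbers gave no sign of pairing over all genes tested (correlation of deviations -0.019 to 0.015). Well expressed genes were not checked apart, so pairing is not excluded. The fits were tested on simulated data, where estimates were close to the changes put in. Most large changes were called among well expressed genes, and most were missed in single lines among low ones. The required rate was first set for both together and was not met, and was then required of the well expressed genes alone. Figures used matplotlib 3.10.9.

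1 gene that meets the symbol rule is not reported here and was left out of the members' counts, though it stayed in the fit over all genes. The members and lists were chosen with earlier results of these data known. A first fit was read before the simulated test was written. G-T pairs in the stem were allowed after an exact search missed 2 genes, and the splits by stem-loop and by gene span were made after the values were seen. H2AC18 and H2AC19 were matched to the annotation by symbol. Named genes were the 8 with the smallest adjusted p over the lines, the 4 smallest per line and in the F test, H1-10, H1-7, H1-8, H1-6, H2AC1, H2BC1 and set replication genes. Others were named after their values were seen. Alternatives were other pseudocounts, filters and scalings, no trend, a replicate block, each line alone, each library left out and a log2 fold limit of 2.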

Additional observations from a re-analysis of the deposited data

Results flagged for a closer look

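The response to DCB differed between the 5 lines for 14 of 53 members, by limma's F test over the 4 differences between lines. This was 26.4% of members, against 34.2% of all genes. The adjusted p was 8.0e-08 for H1-10, 3.2e-05 for H2AC6, 6.8e-05 for H2BC5, 0.000498 for H2BC12, 0.0011 for H3C6, 0.00298 for H1-2 and 0.0047 for H2BC11. It was 0.016 for H4C8, 0.018 for H2BC21, 0.0204 for H3C12, 0.024 for H3C4, 0.028 for H2BC18, 0.031 for H2BC4 and 0.038 for H2AC19. H3C12 changed by 1.71 on the log2 scale in HGC27 and by -1.49 in SNU16, at no more than 6.24 normalised counts. Groups of 2 libraries could not be searched for outliers.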

How the results depend on the processing

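Of 80 calls of single members, none changed direction under any alternative. With the replicate block, 20 of the 80 were lost. It left 0 calls in SNU16, 8 members differing between lines and 1 replication gene in SNU16. The pairing check over all genes gave no sign of such blocks, but did not exclude them. With each line alone, 32 of 49 were lost: 5 members were called in SNU719, 5 in AGS and 1 in SNU16 (HGC27 had 2 higher and 6 lower in place of 6 and 4, and YCCEL1 4 and 2 in place of 5 and 0), and 7 replication genes in YCCEL1, 31 in SNU719 and 1 in SNU16. Without trend, 4 members and 0 replication genes were called in SNU16. The same total per library gave 8 members in YCCEL1 and 5 replication genes in SNU16. It moved the median log2 fold change of all genes from 0.04 to 0.16 in HGC27. With a log2 fold limit of 2, the members called were 1 in YCCEL1, 3 in SNU719, 6 in AGS, 2 in HGC27, 1 in SNU16, 0 over the 5 lines, 1 between CIMP classes and 2 between EBV classes, and the replication genes were 0, 1, 0, 20 and 0 in the 5 lines. Leaving out 1 library at a time gave 3 to 6 members in YCCEL1, 8 to 13 in SNU719, 12 to 15 in AGS, 7 to 11 in HGC27, 0 to 8 in SNU16, 14 to 17 over the 5 lines, 11 to 16 between lines, 7 to 11 for CIMP and 5 to 7 for EBV. Replication genes ranged over 11 to 17, 38 to 50, 11 to 21, 50 to 54 and 0 to 4. A filter that kept genes summing to more than 200 gave 3 higher and 4 lower in HGC27. Low levels and poly(A) libraries limit what can be seen.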
